A study of Mus musculus with 2 samples.

Results

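The transcripts described here encode 10 receptors with which blood-forming cells find, hold on to and leave the bone marrow: the chemokine receptor Cxcr4, the integrin chains Itga4, Itga6, Itgb1, Itgal, Itgam and Itgb2, the selectin ligand Selplg, the hyaluronan receptor Cd44 and the sphingosine 1-phosphate receptor S1pr1. They were chosen by name, and all 10 symbols were found among the 43346 Ensembl genes of both deposited gene tables. Of those genes, 21461 were annotated as nuclear protein-coding, and they are the set against which levels are placed below.

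The RNA came from common myeloid progenitors, marrow cells from which the granulocyte, monocyte, platelet and red cell lineages descend, and was sequenced as total RNA. They were primary cells of male C57BL/6J mice that were 5 to 6 weeks old, untreated and unmodified as far as the labels say. The 2 libraries, biological replicates 1 and 2, form 1 group, so no conditions were compared and no test was made. Both carry the same donor label, and nothing in the labels says that the cells came from separate animals, so the spread between them may be partly technical.

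Leukocytes and their progenitors move between blood and marrow in ordered steps. Selectins on the vessel wall catch sugars carried by PSGL-1 (the product of Selplg) and CD44, the chemokine CXCL12 signals through CXCR4, and activated integrins then fix the cell to VCAM-1, fibronectin, laminin or ICAMs. An integrin is a pair of an alpha and a beta chain, so the chains of a cell limit which receptors it can form. S1PR1 reads the gradient of sphingosine 1-phosphate, which is high in blood, and draws cells out of tissue.

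Expected counts (estimated reads per gene) summed to 28158803 in replicate 1 and 84041054 in replicate 2, a 2.98-fold difference in depth. Levels are given as TPM, which count transcripts relative to the whole table after correction for length, with the mean ± SD over both libraries. Counts relative to the library total (CPM) are not corrected for length and serve only to compare a gene between libraries. Nuclear protein-coding genes held 20.1% and 21.5% of all TPM in replicates 1 and 2, so a TPM is here a share of a pool that is mostly other RNA. Of the surface markers that define this progenitor, Kit stood at 33.5 and 39.8 TPM and Cd34 at 125 and 121 TPM. Ly6a, the gene of Sca-1, stood at 0.69 and 0.73 TPM and Il7r at 0.96 and 0.13 TPM, and the Fc receptor genes Fcgr2b and Fcgr3 at 6.28 and 6.11 TPM and at 1.63 and 3.48 TPM. In RNA from a bulk sample, fewer cells of a type and less RNA per cell cannot be told apart.

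The 10 receptor genes spanned levels from 41.8 ± 0.679 TPM for Itgb1 to 1.26 ± 0.679 TPM for S1pr1. Their median was 13.3 TPM in replicate 1 and 15.3 TPM in replicate 2, against 0.29 and 0.35 TPM over all nuclear protein-coding genes. At least 1 TPM in both libraries was reached by 9 of the 10, where 42.5% of nuclear protein-coding genes did so, and at least 5 TPM by 6 of the 10, against 24.7%. The exception at 1 TPM was S1pr1. The same 42.5% is the share to set beside the counts of genes at 1 TPM given for other lists below. Itgb1, Itga4 and Cd44 together held 64.9% ± 2.78 of the summed TPM of the 10 genes.

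In descending order of mean TPM the genes were Itgb1, Itga4, Cd44, Cxcr4, Itga6, Selplg, Itgal, Itgb2, Itgam and S1pr1. Of the 9 pairs of neighbours in that order, 6 were apart in the sense that the lower value of one gene lay above the higher value of the next. Itgb1 and Itga4, Itga6 and Selplg, and Itgb2 and Itgam overlapped and cannot be ranked against each other from these libraries. The gap between Cxcr4 and Itga6 was narrow, with 16.2 TPM as the lower value of Cxcr4 and 15.7 TPM as the higher value of Itga6.

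**Figure D1:**
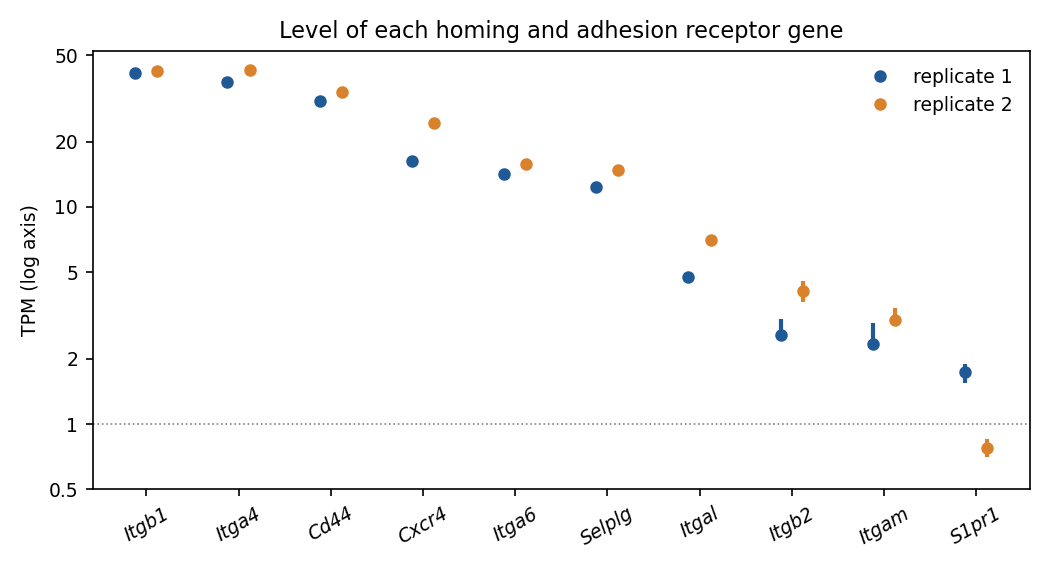
TPM of each receptor gene (log axis) in replicate 1 (blue) and replicate 2 (orange), ordered by mean. Vertical lines span the deposited lower and upper bounds, often shorter than the point, and the dotted line marks 1 TPM, which S1pr1 crossed between the libraries (1.74 and 0.78 TPM).

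Cxcr4, the receptor for CXCL12 that retains stem and progenitor cells in the marrow, lies on the minus strand at chr1:128588199-128592293 (GRCm38, as are all coordinates here). It stood at 16.2 TPM in replicate 1 (deposited bounds 15.3 to 16.7) and 24.4 TPM in replicate 2 (23.6 to 24.7), or 20.3 ± 5.74 TPM. Replicate 2 was thus higher by 1.5-fold on the TPM scale and by 1.29-fold on counts scaled between the libraries. The scaled counts of Cxcr4 differed most among the receptor genes other than S1pr1, and stayed under 2-fold.

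Most of the Cxcr4 signal was assigned to Cxcr4-201, with 97.0% of the gene's TPM in replicate 1 and 96.2% in replicate 2. The other model, Cxcr4-202, joins the same exons from an earlier splice donor and lacks 6 coding bases, so that its product is shorter near the amino terminus, the extracellular end that meets the chemokine. The first 60 coding bases of both models follow, from the start codon on, because they hold the difference. The 6 bases are in capitals.
Cxcr4-201: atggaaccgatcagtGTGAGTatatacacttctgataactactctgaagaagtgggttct
Cxcr4-202: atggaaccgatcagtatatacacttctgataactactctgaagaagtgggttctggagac
These stretches lie at chr1:128589863-128592209 and chr1:128589857-128592209 and each crosses the single intron. Cxcr4-202 is annotated with 902 bases against 1805 for Cxcr4-201, and stood at 0.48 and 0.93 TPM.

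Around Cxcr4, 12 of 15 genes of its signalling chain had at least 1 TPM in both libraries. The regulator of G protein signalling Rgs1 stood highest at 133 ± 8.76 TPM, followed by the cytokine gene Mif at 109 ± 2.9 TPM, the inhibitory G protein subunit Gnai2 at 71.4 ± 0.891 TPM and Rgs18 at 31.6 ± 1.79 TPM. Cxcl12, the ligand itself and a product of stromal cells, stood at 0.18 and 0.56 TPM. Its scaled count was 3.28-fold higher in replicate 2, on 31 and 304 expected counts. Ackr3, the scavenging receptor for the same ligand, and Rgs16 had 0 counts in both libraries. A count of 0 leaves room for 0.107 CPM at the depth of replicate 1 and for 0.0357 CPM at that of replicate 2, where only counting error is covered.

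Of 11 other chemokine receptor genes, 3 reached 1 TPM in both libraries. Ccr2, the receptor of monocytes and their precursors, stood at 10.4 ± 0.686 TPM, below Cxcr4 in both libraries. Cxcr2 stood at 2.05 ± 0.127 TPM and Cx3cr1 at 1.8 ± 0.226 TPM. The lymphocyte receptor genes Ccr7, Ccr10 and Cxcr5 had 0 counts in both libraries.

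Itga4 encodes the alpha4 chain that pairs with beta1 to bind VCAM-1 and fibronectin, and lies at chr2:79255426-79333123 on the plus strand. It stood at 37.5 TPM in replicate 1 (bounds 36.3 to 37.6) and 42.7 TPM in replicate 2 (41.9 to 42.7). It had more counts than any other of the receptor genes, 23971 and 70786, since the level of 40.1 ± 3.68 TPM goes with an effective length of 8397 and 8523 bases. Its CPM of 851 and 842 differed by 1.01-fold, replicate 1 being the higher, while its TPM was higher in replicate 2. The opposite strand of Itga4 carries Cerkl over 2581 bases, with 249 and 564 expected counts. Whether the counting used strand is not given in the sources used here, so reads of the shared stretch may belong to either gene.

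Itgb1, the beta1 chain shared by most matrix-binding integrins, lies at chr8:128685654-128733200 on the plus strand. It stood at 41.3 TPM (bounds 39.8 to 41.7) and 42.3 TPM (41.4 to 42.5), and was the only receptor gene whose deposited bounds overlapped between the libraries. Its CPM of 386 and 345 was the higher in replicate 1. Bounds that did not overlap, seen in 9 of the 10, were found in 64.2% of the genes that had a CPM of 1 or more in each library. The bounds describe the estimate within a library, not the spread between libraries.

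Itga6 encodes the alpha6 chain of laminin receptors and lies at chr2:71745616-71858416 on the plus strand. It stood at 14.1 TPM (bounds 13.4 to 14.7) and 15.7 TPM (15.3 to 16.0), or 14.9 ± 1.11 TPM. The value in replicate 2 was the higher on the TPM scale, and on scaled counts it was lower by 1.04-fold.

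The alpha6 chain exists in forms with different cytoplasmic tails, known as A and B, made by inclusion or skipping of a cassette exon of 130 bases at chr2:71853534-71853663. The full-length model with that exon, Itga6-201, held 54.1% of the Itga6 TPM in replicate 1 and 53.0% in replicate 2. The full-length model without it, Itga6-202, had 0 expected counts in both libraries, with deposited upper bounds of 0.142 and 0.174 TPM. The tails that the models encode are shown because the shares turn on them. Each begins with the same 30 bases of the exon before in lower case, and capitals mark the coding bases that follow to the stop codon.
cassette form: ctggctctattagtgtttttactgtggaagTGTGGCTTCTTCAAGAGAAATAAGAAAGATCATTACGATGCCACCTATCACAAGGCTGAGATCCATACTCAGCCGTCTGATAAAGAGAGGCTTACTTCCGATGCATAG
skipping form: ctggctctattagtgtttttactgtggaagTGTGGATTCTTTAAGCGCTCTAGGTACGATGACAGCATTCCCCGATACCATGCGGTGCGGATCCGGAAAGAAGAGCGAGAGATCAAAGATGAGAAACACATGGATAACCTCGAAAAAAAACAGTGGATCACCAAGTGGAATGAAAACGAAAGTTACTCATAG
The capitals come from chr2:71853534-71853641 in the cassette form and from chr2:71855854-71856015 in the skipping form. They make 36 and 54 codons, the stop included.

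The absence of counts for Itga6-202 does not settle the use of the exon. A non-coding model of 3 exons, Itga6-203, also joins around the cassette, and it held 33.9% and 36.6% of the Itga6 TPM. Models with the cassette summed to 58.9% and 56.3%, so replicates 1 and 2 gave the same order of both classes. Of the 2721 bases of Itga6-203, 1645 lie beyond the annotated 3′ end of Itga6-202, and reads there say nothing about the cassette. The tables hold no counts of splice junctions, so how the skipping junction was read was not tested.

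The 12 alpha chains that can pair with beta1 were led by Itga4, with 64.3% ± 0.279 of their summed TPM, and Itga6, with 23.9% ± 0.52. At least 1 TPM in both libraries was reached by 4 of the 12 (33.3%), where 42.5% of nuclear protein-coding genes did so. Besides Itga4 and Itga6 these were Itgav at 2.82 ± 0.552 TPM and the fibronectin receptor chain Itga5 at 2.23 ± 0.134 TPM. At the low end, Itga3 was listed at 0 and 0.01 TPM, and Itga7 and Itga11 had 0 counts in both libraries. The TPM of Itgb1 was 0.711 of the summed TPM of these alpha chains in replicate 1 and 0.635 in replicate 2, or 0.673 ± 0.0538. With only models annotated as protein-coding, an alternative chosen after seeing the data, the ratio was 0.819. These are ratios of transcripts, and protein was not measured.

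Among integrin chains that form other pairs, Itga2b, the platelet chain also found on early progenitors, stood at 30.2 and 31.7 TPM. Its partner Itgb3 stood at 2.57 and 3.52 TPM. Itgb7, which pairs with alpha4 as a gut homing receptor, stood at 9.69 and 5.93 TPM. Itgb5 stood at 2.69 and 1.51 TPM, Itgb6 at 0.03 and 0.07 TPM and Itgae at 0 and 0.01 TPM. Itgb4 stood at 0.06 and 1.12 TPM on 24 and 44 counts, and its scaled count was 1.61-fold lower in replicate 2. Itgb8 had 0 counts in both libraries. Itgb1 was thus the highest beta chain gene in both libraries, and Itga4 the highest alpha chain gene.

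**Figure D2:**
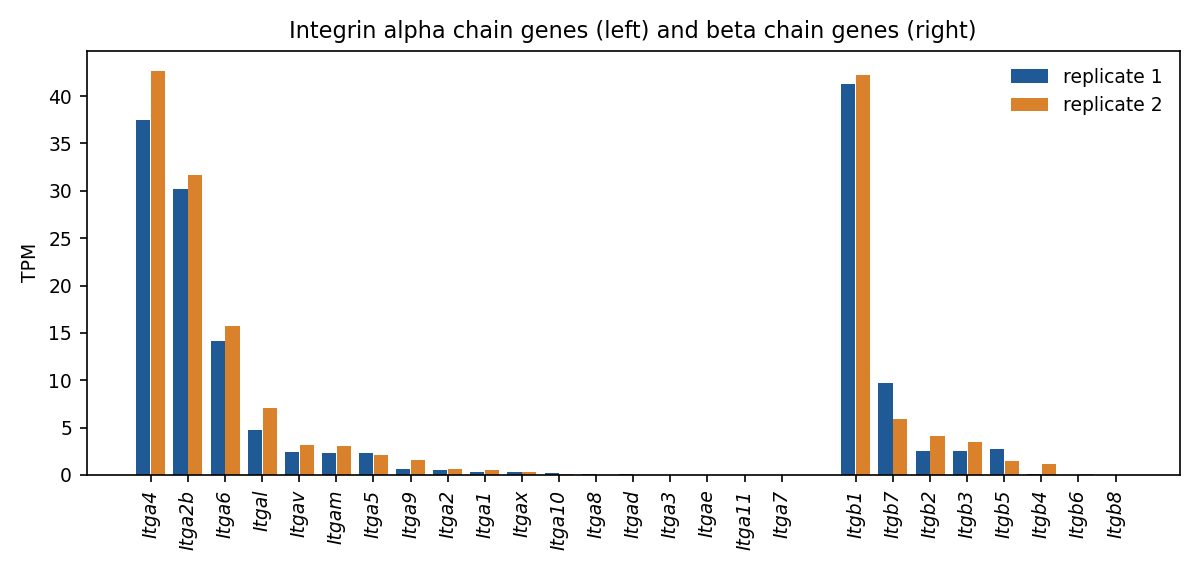
TPM of 18 integrin alpha chain genes (left) and 8 beta chain genes (right) in replicate 1 (blue) and replicate 2 (orange). Itga4, Itga2b and Itga6 lead the alpha chains, and Itgb1, at 41.3 and 42.3 TPM, stands above the other beta chains.

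The chains of leukocyte integrins were lower. Itgal encodes the alpha chain of LFA-1, which binds ICAMs, and lies at chr7:127296260-127335138 on the plus strand. It stood at 4.74 TPM (bounds 4.47 to 4.96) and 7.02 TPM (6.78 to 7.15), a 1.48-fold difference in TPM and a 1.19-fold difference in scaled counts. Itgam, the CD11b chain of the complement receptor on neutrophils and macrophages, lies on the same chromosome and strand at chr7:128062640-128118491 and stood at 2.35 TPM (2.27 to 2.92) and 3.01 TPM (2.94 to 3.41).

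Itgb2, their shared beta2 chain, lies at chr10:77530252-77565708 on the plus strand. It stood at 2.58 TPM (bounds 2.41 to 3.06) and 4.09 TPM (3.66 to 4.56), so by TPM it was 1.59-fold higher in replicate 2. By scaled counts it was 1.15-fold lower in replicate 2, on 541 and 1404 expected counts. The scales part because the effective length of the gene was 2755 bases in replicate 1 and 1765 bases in replicate 2. In replicate 1 all of the TPM was assigned to the full-length Itgb2-201, and in replicate 2 57.8%, with 24.1% in Itgb2-202 (630 bases) and 16.6% in Itgb2-203 (364 bases). Itgb2-201 alone stood at 2.58 and 2.37 TPM. No direction between the libraries can be read for Itgb2.

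Among the 4 alpha chains that pair with beta2, Itgal held 65.7% ± 3.44 of the summed TPM and Itgam 30.3% ± 1.52. Itgax stood at 0.33 and 0.27 TPM, and Itgad at 0.07 and 0 TPM. The TPM of Itgb2 was 0.344 and 0.397 of the alpha sum (0.371 ± 0.0372). In replicate 2 this counts 0.99 and 0.68 TPM of the short models Itgb2-202 and Itgb2-203, so the small SD depends on how reads were assigned. The ratio was 0.456 with only models annotated as protein-coding in M21, which keeps these short models. That setting leaves out an Itgam model of unknown class (1.38 and 2.04 TPM). The Itgam model, of 4310 bases, belongs to M4, has no match in M21 and held 58.5% and 68.0% of the gene's TPM, with the rest in Itgam-201. Of the 2 models of the M4 gene that now carry the name Gm49368, each was listed at 0. Most of the Itgal TPM was in Itgal-201, with 64.8% and 48.9%, and the shorter Itgal-203, with 23.2% and 43.9%. Itgal-202 held 12.03% and 2.28%, and Itgal-204 held 0% and 4.99%.

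Mature cells that carry these chains at high levels could add to the values, and their part was not tested. Of 7 neutrophil markers 4 reached 1 TPM in both libraries, and the list summed to 18.1 and 20.4 TPM. By mean TPM its members ranged from Ltf at 6.77 and 7.94 TPM to the defining surface gene Ly6g at 0.42 and 0 TPM, with Csf3r, Cxcr2, Retnlg, Mmp8 and Mmp9 between. Of 7 monocyte and macrophage markers 5 reached 1 TPM, the list summing to 36.8 and 37.3 TPM, with Ly6c2 at 16.9 and 12.1 TPM and the macrophage gene Adgre1 at 0.25 and 0.54 TPM. Csf3r, Csf1r, Ccr2 and Ly6c2 are also known from granulocyte and monocyte progenitors.

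Transcripts of the machinery that activates integrins from inside the cell were present. Of 16 genes 12 had at least 1 TPM in both libraries, and their median was 8.84 and 10.5 TPM. Talin 1 (Tln1), which binds the beta tail, stood at 59.1 ± 7.44 TPM and kindlin 3 (Fermt3), the blood cell kindlin, at 45.9 ± 2.6 TPM. Rap1b stood at 41.9 ± 2.5 TPM and Skap2 at 29.9 ± 0.368 TPM. The paralogs were low, with Tln2 at 0.13 and 0.19 TPM and Fermt1 and Fermt2 at 0 counts in both libraries.

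Of 13 genes that link integrins to the cytoskeleton and to kinases, 9 reached 1 TPM in both libraries. Parvg, the blood cell parvin, stood at 40.4 ± 6.29 TPM, Ilk at 29.2 ± 5.02 TPM, Lims1 at 20.3 ± 6.47 TPM and the kinase gene Syk at 17.5 ± 1.34 TPM. The focal adhesion kinase gene Ptk2 stood at 0.47 and 0.65 TPM, and Parva had 0 counts. Src stood at 0.28 and 0.15 TPM and was 2.29-fold lower in replicate 2 on scaled counts, from 71 and 92 expected counts.

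Selplg encodes PSGL-1, the main leukocyte ligand of P-selectin, and lies at chr5:113818536-113832644 on the minus strand. It stood at 12.4 TPM (bounds 11.7 to 12.7) and 14.9 TPM (14.4 to 15.1), or 13.6 ± 1.73 TPM. Scaled counts differed by 1.03-fold between the libraries. The gene has a single transcript model, so its TPM does not depend on how reads were divided between models. It does depend on the length of that model, which is 2604 bases as quantified and 1855 bases in M21.

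PSGL-1 binds selectins once it carries sulphated tyrosines and fucosylated sugars. Of 17 selectin and glycosylation genes 14 had at least 1 TPM in both libraries. Galnt1, which starts O-linked sugar chains, stood at 47.1 ± 5.85 TPM, Glg1 at 12.9 ± 0.99 TPM and C1galt1 at 9.16 ± 0.884 TPM. Fut7, the fucosyltransferase of selectin ligands, named outside the rule for named genes after its value was seen, stood at 5.54 ± 0.898 TPM. Tpst1, a tyrosine sulphotransferase, stood at 0.56 and 1.73 TPM, its scaled count being 2.69-fold higher in replicate 2 on 70 and 562 expected counts. The other sulphotransferase gene of the list, Tpst2, also named outside the rule, stood higher at 4.94 and 7.12 TPM, with scaled counts 1.31-fold higher in replicate 2. Podxl stood at 0.17 and 0.12 TPM, and the endothelial selectin Sele had 0 and 3 counts.

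Cd44, the receptor for hyaluronan, lies at chr2:102811141-102901665 on the minus strand. It stood at 30.8 TPM (bounds 29.4 to 31.2) and 33.8 TPM (33.0 to 34.1), or 32.3 ± 2.16 TPM. Scaled counts were 1.07-fold higher in replicate 2, and both scales agreed in direction.

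Cd44 transcripts differ in a block of variable exons in the stem outside the membrane, of which the model Cd44-201 holds 10. The short model without any, Cd44-203, known as the standard form of blood cells, held 34.4% of the Cd44 TPM in replicate 1 and 41.3% in replicate 2. Cd44-207, with exons 5, 6, 8, 9 and 10 of that block, held 32.4% and 43.1%. The sequences show where the models part. The lower case bases are the last 30 of the exon before the variable block, and capitals mark what follows, which is the start of the exon after the block in the short form and the whole variable exon of 117 bases in the variable form.
short form: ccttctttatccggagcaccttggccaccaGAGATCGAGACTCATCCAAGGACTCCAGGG
variable form: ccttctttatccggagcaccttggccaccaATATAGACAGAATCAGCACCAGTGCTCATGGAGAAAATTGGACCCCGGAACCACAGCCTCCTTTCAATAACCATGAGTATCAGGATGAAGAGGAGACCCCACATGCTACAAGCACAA
They span chr2:102828581-102853044 and chr2:102842261-102853044.

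Models with at least 1 variable exon summed to 43.7% and 45.5% of the Cd44 TPM, and the model with all 10 held 2.24% and 0.502%. Other than Cd44-207 and Cd44-201, Cd44-206, with the last variable exon alone, held 8.55% and 0.355%. A share of Cd44-207 need not stand for variable exons: of its 5045 bases 636 are variable, while 1389 lie in a longer 3′ end that it shares only with Cd44-201 among the coding models. Reads from that end in a short transcript would be assigned to a model with variable exons, and the tables hold no exon counts with which to divide them. Cd44-209, a model that ends in 1122 bases of intron, held 22.0% and 13.2%.

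**Figure D3:**
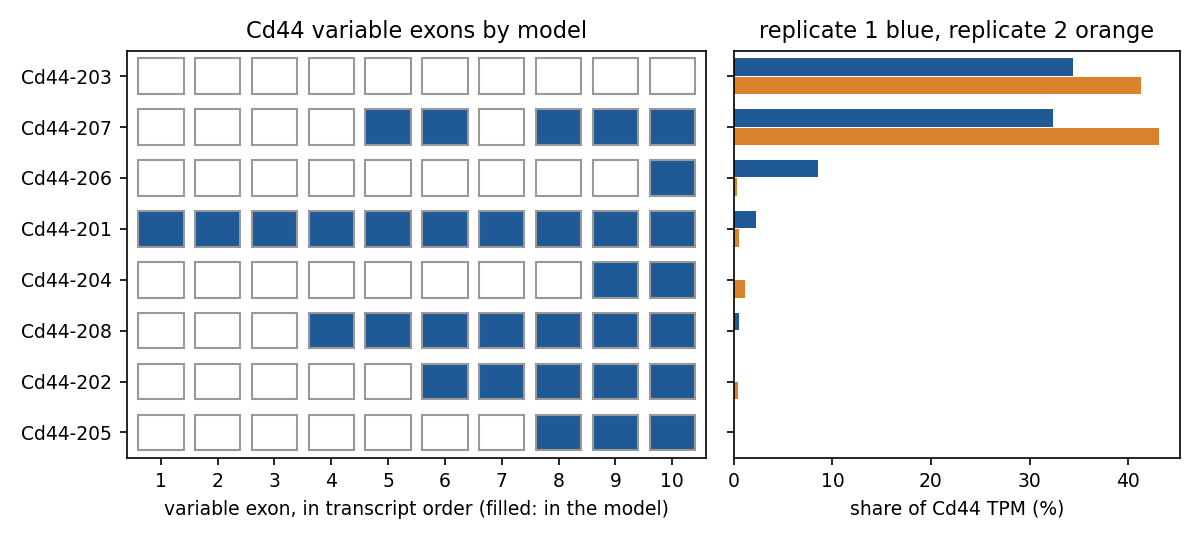
Variable exons held by each coding model of Cd44 (left, filled squares) and the model's share of the Cd44 TPM in percent (right) in replicate 1 (blue) and replicate 2 (orange). The model with no variable exon and Cd44-207 held between 32.4% and 43.1% each, and each of the other coding models held 8.55% or less.

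Of 15 genes for the cytoskeletal linkers, sheddases, splicing factors and ligand synthesis of Cd44, 10 reached 1 TPM in both libraries. The linkers Rdx, Ezr and Msn stood at 53.5 ± 1.91, 38.7 ± 0.148 and 32.6 ± 6.58 TPM. Khdrbs1, the gene of the splicing regulator Sam68, stood at 24.0 ± 3.75 TPM. The hyaluronan synthase genes Has1 and Has2 and the epithelial splicing regulators Esrp1 and Esrp2, known to promote variable exons, had 0 counts in both libraries. The other synthase gene of the list, Has3, named outside the rule, stood at 0.29 and 0.55 TPM on 21 and 114 counts.

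S1pr1 lies at chr3:115710433-115715072 on the minus strand. It stood at 1.74 TPM in replicate 1 (bounds 1.55 to 1.90) and 0.78 TPM in replicate 2 (0.706 to 0.854). The counts were 374 and 432, which is 13.3 CPM (exact 95% Poisson interval 11.97 to 14.7, counting error only) and 5.14 CPM (4.67 to 5.65). Scaled counts were 2.57-fold lower in replicate 2, a log2 ratio of -1.36. S1pr1 was the 1 of 10 receptor genes that differed at least 2-fold, against 5.37% of the 11804 genes whose CPM was 1 or more in each library, and 2.44% for a difference in that direction. By deposited TPM it was again 1 of 10, against 9.17%. With 1 library on either side, the difference has no replicate check.

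S1pr1 is also expressed by lymphocytes and endothelial cells. Il7r, a lymphoid gene that the progenitor gate excludes, had 218 and 76 counts, or 7.74 and 0.904 CPM. B cell markers did not move the same way: they summed to 0.06 and 1.76 TPM, none of 6 reached 1 TPM in both libraries, and Cd79a, Ms4a1, Pax5 and Ebf1 had 0 counts. T and NK cell markers summed to 0.41 and 0.61 TPM, and none of 7 reached 1 TPM. Cd4 had 33 and 89 counts, Klrb1c 21 and 62 counts and Cd3g 0 and 51 counts. Cd3e, Cd8a, Ncr1 and Trac had 0 counts. Stromal and endothelial markers summed to 3.94 and 5.85 TPM, of which Pdgfrb made 3.28 and 4.47 TPM. Of the endothelial genes, Kdr had 37 and 109 counts, at 0.09 and 0.1 TPM, and Cdh5 had 0 counts. The part of other cells in the S1pr1 difference was not tested.

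Of 13 genes of sphingosine 1-phosphate reception and metabolism, 9 reached 1 TPM in both libraries. Cd69, whose product draws S1PR1 from the cell surface, stood at 40.4 ± 4.34 TPM. The exporter gene Mfsd2b stood at 15.5 ± 2.75 TPM, the kinase gene Sphk1 at 12.5 ± 0.311 TPM and the phosphatase gene Sgpp1 at 10.5 ± 0.099 TPM. S1pr4, a receptor of the same family named outside the rule after its value was seen, stood at 2.37 and 3.25 TPM, above S1pr1 in both libraries. Of the remaining receptors, S1pr3 stood at 0.85 and 1.55 TPM, S1pr2 at 0.66 and 1.11 TPM and S1pr5 at 0 and 0.02 TPM. S1pr1 was the only gene of this list that differed 2-fold and passed 1 CPM in both libraries.

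Between the libraries, the 9 receptor genes other than S1pr1 had log2 ratios of scaled counts from -0.20 for Itgb2 to 0.37 for Cxcr4, replicate 2 over replicate 1. On that scale the median over all genes was 0.00 and the central 90% of genes ran from -0.71 to 0.79. In TPM all 9 were higher in replicate 2, by log2 ratios from 0.03 to 0.66, but the median over all genes was itself 0.21 on that scale. The median of the 9 was 0.26 in TPM and 0.05 in scaled counts. Itgb1, Itga4, Itga6 and Itgb2 were higher in replicate 2 by TPM and lower by scaled counts. Such an opposite sign was seen in 4 of the 10 genes and in 25.4% of the 11804 genes. A positive log2 ratio of scaled counts was found in 5 of the 10 receptor genes, against 50.7%, and no receptor gene was 2-fold higher in replicate 2, against 2.93%.

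**Figure D4:**
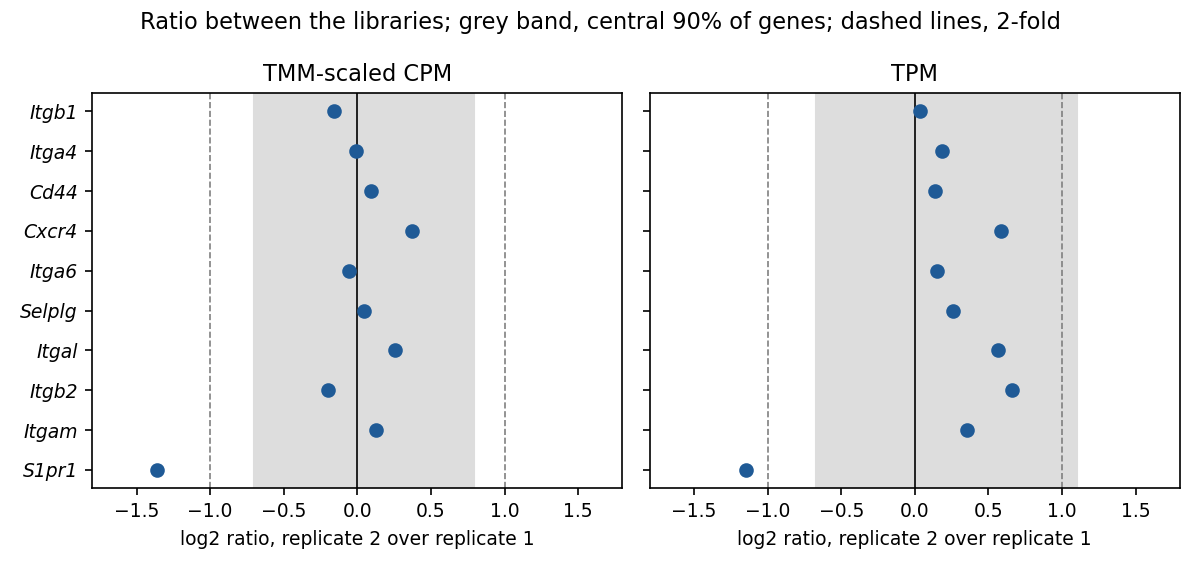
Log2 ratio of replicate 2 over replicate 1 for each receptor gene in TMM-scaled CPM (left) and TPM (right). The grey band spans the central 90% of 11804 genes and the dashed lines mark 2-fold; S1pr1 lies outside both in each panel (-1.36 and -1.15), and the other 9 genes lie inside.

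The share of the TPM held by protein-coding models also differed among the receptor genes. Itgb1 had 95.3% and 96.7% in Itgb1-201, and Itga4 85.0% and 85.9% in Itga4-201, the remainder being spread over non-coding models of the gene. Itga6 had 58.9% and 56.3% in coding models and Cd44 78.0% and 86.8%. By expected counts, which give long models more weight, Itga6-201 held 67.4% and Itga4-201 96.5% of their genes as means of both libraries.

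**Figure D5:**
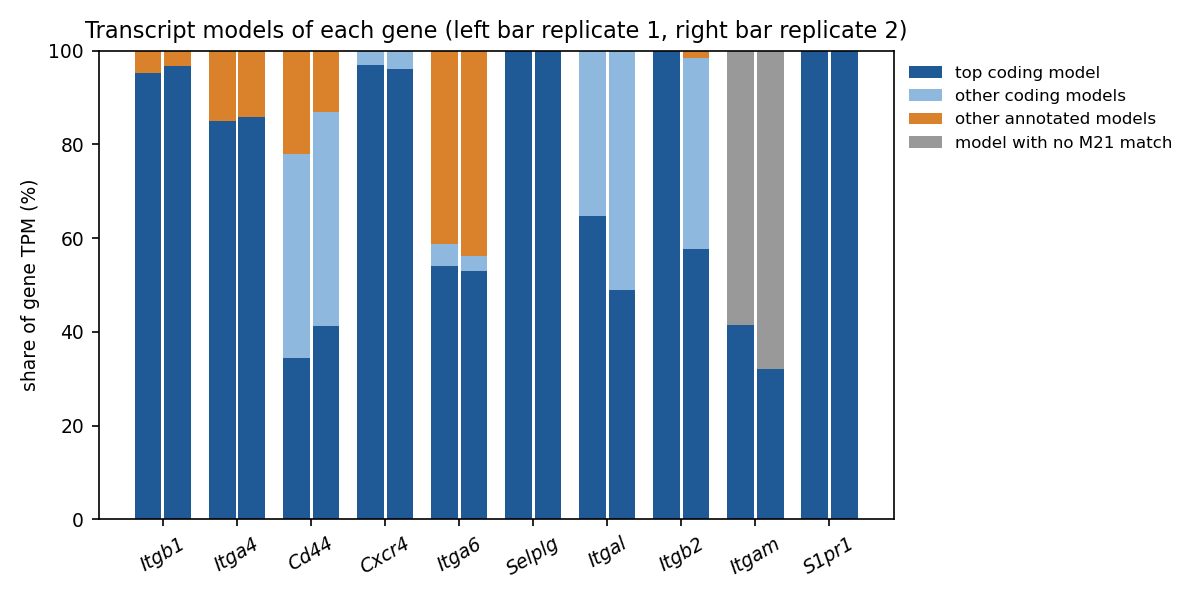
Share of each receptor gene's TPM (percent) in its coding model of highest mean share, other coding models, other annotated models and a model with no match in M21. For each gene the left bar is replicate 1 and the right bar replicate 2; Itga6 has the most in non-coding models (41.1% and 43.7%), and Itgam the only share without a match (58.5% and 68.0%).

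Ligands that these receptors meet on other cells were also read in the progenitor RNA, with a median of 0.415 and 0.695 TPM over 10 genes. Of these genes 3 reached 1 TPM in both libraries. They were Icam2, a ligand of LFA-1, at 13.6 ± 3.08 TPM, Fn1 at 1.13 and 3.99 TPM and Icam1 at 2.39 ± 0.785 TPM. Icam2 was above Itgal and Itgb2 in both libraries. The scaled count of Fn1 was 1.3-fold lower in replicate 2, on 253 and 579 counts. Vcam1, the stromal ligand of the alpha4 beta1 integrin, stood at 0.39 and 0.65 TPM. Spp1 stood at 2.43 and 0.19 TPM on 56 and 44 counts, Lama5 at 0.02 and 0.01 TPM, and Madcam1 and Lama4 had 0 counts.

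Of 18 other adhesion molecules of progenitors, 10 reached 1 TPM in both libraries. Cd47, the signal that protects cells from phagocytosis, stood at 46.5 ± 2.4 TPM, above each of the 10 receptor genes in both libraries. The tetraspanin gene Cd81 stood at 42.4 ± 5.27 TPM, the sialomucin gene Cd164 at 32.1 ± 7.69 TPM and Cd93 at 25.3 ± 1.16 TPM. Jam2, Jam3 and Cdh2, junction and cadherin genes, stood at 0.08 TPM or less in each library.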

How the data were processed

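Total RNA was read in 2 libraries of 1 group. For each library the authors deposited tables of genes and of transcripts. Their assembly was mm10 and their annotation GENCODE M4, as the readmes state. Aligner and quantifier are not given in the sources used here. The deposited expected counts are estimated reads that need not be whole, per the file headers. The deposited TPM, FPKM and posterior mean TPM are corrected for length. The deposited percent of a gene per transcript was not used; shares were computed from transcript TPM. The level of the deposited TPM bounds is not stated. Libraries were made from 100 ng of ribosomal RNA-depleted RNA with a ScriptSeq kit, per the labels.

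Names and coordinates came from GENCODE M21 (GRCm38) by Ensembl ID, matching 42462 of 43346 genes, and 43 of 49 transcript models of the receptors had the same length there. Sequences are those of M21 transcripts. Rounded expected counts were scaled by TMM (edgeR 4.0.16; R 4.3.3), with DESeq2 1.42.0 size factors and library totals as alternatives. Ratios used a prior count of 0.5, with 0.01 added to TPM, and counts of 2-fold differences a minimum of 1 CPM in both libraries. The rest ran in Python 3.11.15 with pandas 2.3.3. Only the TMM scaling and the 2-fold calls were tested on simulated gene counts, with counting error alone. Transcript shares and chain ratios were not tested in that way. A count of 0 was read as up to 3 counts. The libraries carry no molecular identifiers that the sources name, so limits and intervals cover counting error only.

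The receptors and 21 further gene lists were chosen with earlier results of these data known. All receptors were named, all genes of lists of up to 8, and of longer lists the 4 highest, the 3 lowest and any 2-fold apart; 3 list genes that this rule names are not reported here. Of 209 list symbols 208 matched; Cd97 is an older symbol of Adgre5.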

Additional observations from a re-analysis of the deposited data

How the results depend on the processing

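With 1 group of 2 libraries there is no error of the ratio between libraries. No paired analysis was possible because the design has 1 group. S1pr1 was the receptor gene apart 2-fold under DESeq2 size factors, library totals, deposited TPM, posterior mean TPM, a prior count of 5 and no filter on low counts. Over all genes, 634 were apart, 1082 by deposited TPM and 5123 with no filter. The number of receptor genes at 1 TPM in both libraries was 9, and 10 by FPKM or by TPM rescaled to nuclear protein-coding genes. Counting only models annotated as protein-coding in M21, chosen after seeing the data, moved the ratio of Itgb1 to its alpha chains from 0.673 to 0.819 and that of Itgb2 from 0.371 to 0.456, the latter mainly by leaving out the Itgam model of unknown class, with 58.5% and 68.0% of the Itgam TPM. Posterior mean TPM kept all 10 levels within 1 SD, while FPKM and rescaled TPM differ from TPM by unit. By expected counts, the share of the leading model moved by more than 1 SD in 5 of 10 genes.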

Other observations

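Markers of 3 more cell types were read beside the receptors. Erythroblast markers summed to 23.3 and 21.4 TPM, with Hbb-bt at 5.63 and 5.82 TPM and Hbb-bs 2.29-fold lower in replicate 2 on scaled counts. Megakaryocyte markers summed to 37.7 and 42.0 TPM, of which Itga2b made 30.2 and 31.7 TPM. Beside it, Itgb3 had 2.57 and 3.52 TPM, Gp9 2.07 and 3.32 TPM and Gp5 2.48 and 2.63 TPM. Lower values were those of Gp1ba, with 0.12 and 0.7 TPM on 21 and 342 counts, and Ppbp, with 0.3 and 0.18 TPM. Stem cell markers summed to 5.91 and 7.15 TPM, with Hlf at 1.92 and 3.54 TPM, Fgd5 at 0.55 and 0.12 TPM and Hoxb5 at 0 counts in both libraries.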
